A study of Mus musculus with 6 samples.

Results

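The cytosolic ribosome of the mouse is built from ribosomal RNAs and the products of the Rpl and Rps genes, which form the large and the small subunit. These genes are among the most actively transcribed of most cells, and their mRNAs begin with a pyrimidine-rich tract through which the mTOR kinase and the binding protein Larp1 control their translation. Processed copies of these mRNAs are scattered over mammalian genomes as pseudogenes whose sequences are close to those of the parent genes.

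The genes were chosen by symbol: every Rpl or Rps symbol made of a number with an optional a, x or l, together with Rplp0, Rplp1, Rplp2 and Rpsa, without pseudogenes and without the Rps6k kinases. This gave 80 genes, of 35049 in the tables of the captured samples and 37991 in those of the punched samples. By symbol they comprise 31 small-subunit genes, 45 large-subunit genes and 4 paralogs (Rpl3l, Rpl10l, Rpl39l and Rps27l). One of the 45, the entry that the deposited tables list as Rpl24, has a gene identifier that GENCODE M21 gives to the neighbouring zinc finger gene Zbtb11. Its captured reads (113, 240, 213 and 163 in the wild type, En1+/-, contralateral and infused sample) lay on the Zbtb11 transcript, while the coding transcript that GENCODE M21 assigns to Rpl24 had 2, 0, 3 and 8 reads. The entry is kept in the counts because the symbol rule takes it. It held 3.39% to 7.07% of the genes' reads in the captured libraries and 2.77% and 2.83% in the punches. No gene was listed under the symbol Rps4l.

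The study measured total RNA from the substantia nigra pars compacta (SNpc), the midbrain nucleus whose dopaminergic neurons are lost in Parkinson's disease, and asked what the homeoprotein Engrailed does there. Engrailed is encoded by En1 and En2. All 6 samples were mouse tissue, with 1 sample per group. Neurons stained for tyrosine hydroxylase were laser captured from a wild-type mouse group and an En1+/- group, both aged 6 weeks, and from the SNpc on the side opposite to an En2 infusion (contralateral) and on the infused side, in wild-type mice aged 8 weeks after 7 days of infusion by osmotic pump. Tissue punches of 1 mm were taken from wild-type mice aged 8 weeks that had received the dopaminergic toxin 6-OHDA, followed 30 min later by saline (6-OHDA) or by 300 ng of recombinant En2 in 2 µl with 3 µg of colominic acid (6-OHDA En2). The number of animals behind each sample is not stated in what was used here. For the infusion pair En2 is the protein given by the labels and followed here, although En1 appears in the names of its deposited tables. En1+/- mice carry 1 disrupted copy of En1, and this allele is not limited to dopaminergic neurons.

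The captured libraries held 16145262 to 21332308 counts over all transcripts. With only the most-read transcript of each gene kept, 1510189 to 3272409 counts lay outside mitochondrial and ribosomal RNA genes. The second range is therefore not a share of the first. The punched libraries held 15927206 and 19044672 counts, nearly all outside those genes. Levels are given below as CPM, reads per 1000000 of these counts outside mitochondrial and ribosomal RNA genes. In the captures this total leaves out the other transcripts of each gene. Levels are compared between genes only per kilobase, of the transcript counted (captures) or of the gene's merged exons (punches). All 16 dopaminergic neuron markers had reads in every library, and their summed level was 8920 to 11235 CPM in the captured samples against 594 and 764 in the punches. All 11 oligodendrocyte markers had reads too, with summed levels of 19429 to 28618 in the captured samples, so RNA of other cells was present in the captures. In bulk samples fewer cells of a type and less RNA per cell cannot be told apart.

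Ribosomal protein genes took a small part of every library, and a smaller one in the captured neurons than in the punches. Their summed level was 2073 CPM (95% Poisson interval 2001 to 2147) in the wild type, 2166 in En1+/-, 1578 in the contralateral and 1710 in the infused sample, against 3033 and 3019 in the 6-OHDA and 6-OHDA En2 punches. The 4 captured values all lay below the 2 punched values. The sums leave out reads counted for the genes' named pseudogenes. Of the reads on genes and named pseudogenes together, these were 10.2% to 16.3% in the captures and 67.0% and 66.2% in the punches. Capture and punch differed in the cells taken, in the counting per transcript or per gene and in the amount of ribosomal and mitochondrial RNA, which cannot be told apart here. Reads are not independent molecules, so this and all intervals below cover counting error only.

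Behind these sums stood few reads per gene in the captured libraries. The median gene had 6 reads in the wild type, 9.5 in En1+/-, 6 in the contralateral and 7 in the infused sample, and 387.5 and 436.5 in the punches. Between 23 and 33 of the 80 genes reached 20 reads in a captured library, against 72 in each punch. Between 13 and 15 genes had 0 reads in a captured library, against 2 and 1 in the punches. With 0 reads a level of up to 0.917 (En1+/-) to 1.99 (wild type) CPM is allowed. Measured per kilobase, the genes' median percentile among all protein-coding genes was 54.1 to 58.0 in the captured libraries and 80.1 and 78.9 in the punches. This ranking includes genes with 0 reads. Of 20450 protein-coding genes ranked in the captures, 12738 to 13515 had reads, and of 20201 in the punches 16178 and 16468.

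**Figure D1:**
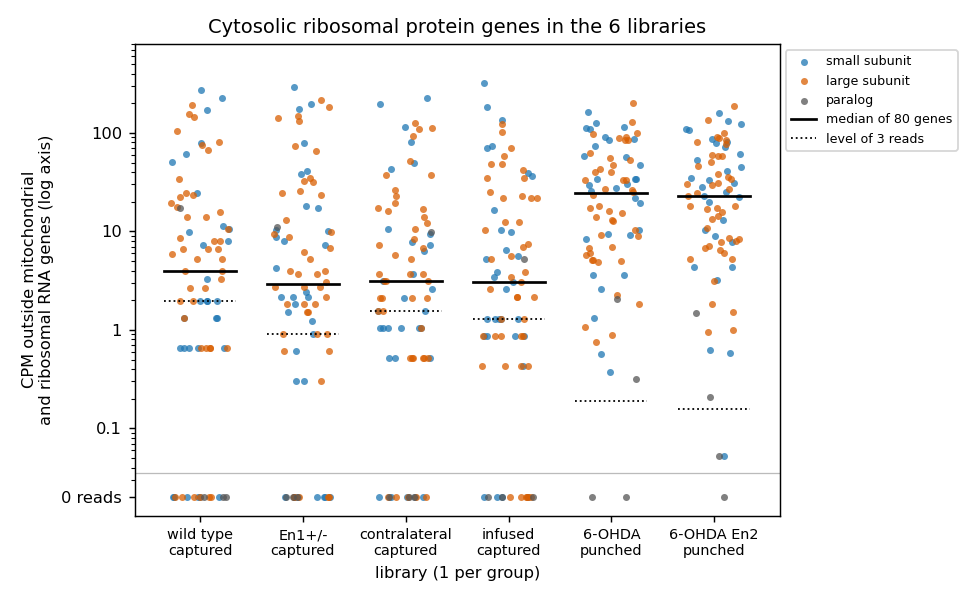
Level of each of the 80 genes (points, coloured by subunit) in the 6 libraries, as CPM outside mitochondrial and ribosomal RNA genes on a log axis, with the median of the 80 genes (solid line) and the level of 3 reads (dotted line). In the captured libraries 13 to 15 genes lie at 0 reads and the medians are close to the level of a few reads, while in the punches 72 genes reach 20 reads.

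Rps15, a small-subunit protein of the head region, was among the 3 genes with the highest level per kilobase in the captured libraries. It lies at chr10:80292453-80294114 on the plus strand (GENCODE M21 on GRCm38), and gave 342 reads in the wild type, 644 in En1+/-, 220 in the contralateral and 314 in the infused sample, a mean of 295 CPM per kilobase. Rpl8 (chr15:76904078-76906314), a protein close to the peptidyl transferase center, was also among these 3, with 236, 699, 211 and 238 reads in the same order and a mean of 171 CPM per kilobase. These are raw reads, and the En1+/- library was the deepest outside mitochondrial and ribosomal RNA genes. In the same order of libraries Rps15 stood at 226, 197, 115 and 136 CPM, highest in the wild type. Rpl8 stood at 156, 214, 111 and 103 CPM, highest in En1+/- and lowest in the infused sample.

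In the punches Rps15 was highest, at a mean of 184 CPM per kilobase, followed by Rplp1, a P stalk protein that recruits translation factors, at 102, and Rpl4, a protein lining the peptide exit tunnel, at 97.1. Rpl8 stood just behind Rpl4 at 96.9, and these 2 genes changed places between the punches, Rpl4 at 99.7 and 94.5 and Rpl8 at 94.1 and 99.7.

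The order of levels was carried over between the punches and hardly between the methods. Spearman's rho of the levels per kilobase was 0.99 between the 2 punches over 80 genes, 0.60 to 0.77 between captured libraries over 79 genes with a known transcript length, and 0.21 to 0.37 between a captured and a punched library. These values describe genes that share a library, with low counts in the captures. Rps3a gave 0, 1, 0 and 2 reads in the captured libraries in the order wild type, En1+/-, contralateral and infused, against 1356 and 1525 in the punches. Rps4x, the X-linked gene of a small-subunit protein, gave 0, 0, 1 and 3 reads against 1802 and 2083. Both were near the bottom of the captured libraries and among the 6 highest of the punches per kilobase.

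The 3 genes of the P stalk differed in the same way. Rplp1 (chr9:61913284-61914542) had 52 reads in the wild type, 115 in En1+/-, 71 in the contralateral and 112 in the infused sample. Rplp0, the stalk's base, had only 0, 6, 1 and 7 reads in those libraries, but 1340 and 1691 in the punches. Rplp2, the partner of Rplp1, had 12, 22, 3 and 17 captured reads and 81 and 116 punched reads, the latter beside 723 and 1008 on its pseudogene Rplp2-ps1. The proteins of Rplp1 and Rplp2 join the ribosome as pairs, yet per kilobase Rplp1 stood at 69.0 to 97.2 CPM in the captures and Rplp2, counted on a retained-intron transcript, at 3.38 to 17.1.

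The mRNAs of these genes are known for a tract of pyrimidines at their start, and the start windows below show where the letters CTTTCC, a run of pyrimidines, lie around the annotated start of the genes with the most punched reads that carry them there. Genes on a single chromosome were left out of this choice of windows. RefSeq promoter entries (GRCm38.p6) were found for 60 of the 80 genes. Within 30 bases on either side of the start, the letters CTTTCC stood on the gene's strand in 11 of the 56 matched genes other than paralogs (19.6%), and in 3.40% of all 27025 genes of the table. Its reverse complement GGAAAG stood there in 1.79% of the matched genes and 3.13% of all genes. The only other letters searched were CCGGAAG, a core bound by ETS factors, whose first bases can overlap the last bases of CTTTCC. Over 250 bases before to 50 after the start and on either strand, CCGGAAG stood in 23 of the 56 genes (41.1%) and in 9.93% of all genes. The windows run from 20 bases before the start to 10 bases after it, 5′ to 3′ on the gene's strand, with CTTTCC in capitals.
Rpl4, chr9:64173367-64173396, plus strand: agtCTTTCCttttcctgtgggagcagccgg
Rpl15, chr14:18270977-18271006, minus strand: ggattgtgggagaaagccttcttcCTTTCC
Rpl35, chr2:39005122-39005151, minus strand: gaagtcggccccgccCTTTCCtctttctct
Rps10, chr17:27635235-27635264, minus strand: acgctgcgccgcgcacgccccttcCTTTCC
Rpl35a, chr16:33056462-33056491, plus strand: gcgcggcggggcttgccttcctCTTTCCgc
Rpl28, chr7:4792945-4792974, plus strand: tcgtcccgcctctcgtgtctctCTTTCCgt
In Rpl4 the capitals end 11 bases before the annotated start, and in Rpl35 5 of the 6 letters lie before it. In Rpl15, Rps10, Rpl35a and Rpl28 they lie wholly after it. A match of letters describes these windows only, and the RNA counts below do not measure translation.

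A large part of the punched reads of this family was counted for pseudogenes. In GENCODE M21 or the deposited tables, 61 of the 80 genes have at least 1 pseudogene named after them, 299 in all, with most (24 each) for Rpl31 and Rps12. Of the reads on members and on named pseudogenes together, 67.0% (98053 of 146366, exact binomial interval 66.8% to 67.2%) lay on pseudogenes in the 6-OHDA punch and 66.2% (112536 of 170031) in the 6-OHDA En2 punch. In the captured libraries the share was 16.3% (610 of 3741) in the wild type, 14.0% in En1+/-, 12.2% in the contralateral and 10.2% in the infused sample. The deposited summary of the punched counts lists 0 alignments as not unique. How reads of a gene and its copies were divided was not tested.

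**Figure D2:**
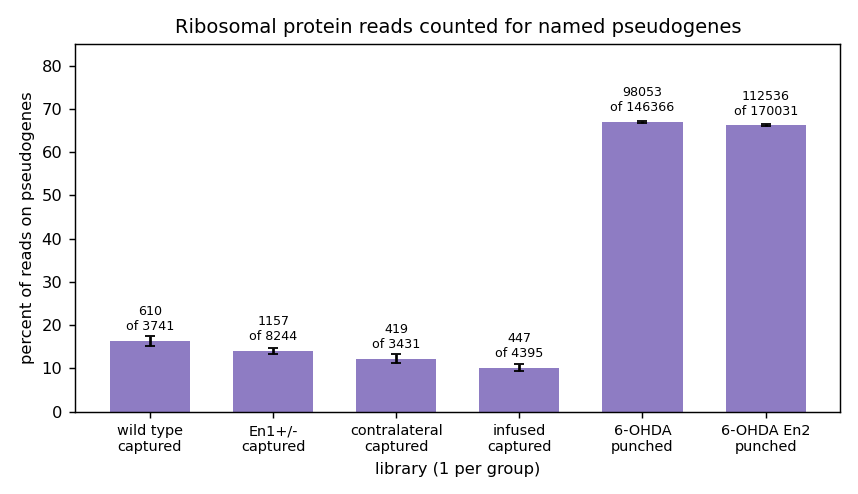
Percent of the reads on ribosomal protein genes and their named pseudogenes that were counted for the pseudogenes, per library, with 95% exact binomial intervals (bars start at 0; reads are printed above them). The 2 punched libraries lie at 67.0% and 66.2%, and the 4 captured libraries between 10.2% and 16.3%.

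The imbalance was extreme for some genes of the punches. Rpl17 had 80 and 101 reads of its own against 6323 and 6894 on its pseudogenes, in the order 6-OHDA and 6-OHDA En2. Rpl9 had 245 and 348 against 6674 and 7650, and Rpl34 had 14 and 18 against 1387 and 1689. Of the 57 parent genes with reads in the 6-OHDA punch, 39 had more reads on pseudogenes than on the gene. Rpl3, whose protein reaches toward the peptidyl transferase center, had 1596 and 1907 own reads against 8749 and 10064, of which 7270 and 8463 lay on the single copy Rpl3-ps1. By contrast Rplp1 and Rpl35 had 0 pseudogene reads in both punches.

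Captured pseudogene reads were concentrated on few copies. Rpl14-ps1 alone took 269, 412, 156 and 98 reads in the wild type, En1+/-, contralateral and infused sample, against 29, 80, 50 and 53 on Rpl14 itself. Rpl10a had 148, 345, 57 and 86 reads on pseudogenes against 9, 3, 14 and 29 of its own. The level of a single member is therefore the level of the reads assigned to it, and it is uncertain at least for the 61 genes with named copies. Copies listed under other symbols were not searched for. Among 75 subunit genes, without the Rpl24 entry, the 14 with no named pseudogene held 45.0% to 51.4% of member reads in the captures and 27.8% and 27.3% in the punches.

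Most paralogs were hardly read. Rpl10l, a retrogene that replaces Rpl10 in the mouse male germ line, had 0 reads in all 6 libraries. Rpl39l had 0 reads in all but the 6-OHDA En2 punch, with 1 read, against 258 and 319 punched reads of Rpl39. Rpl3l, the striated-muscle paralog of Rpl3, had 0 reads in the captures and 5 and 4 in the punches. Rps27l, a stress-responsive paralog in the p53 pathway, was the exception, with 26, 36, 19 and 12 captured reads against 3, 14, 2 and 7 of Rps27, and 33 and 28 punched reads against 6 and 1. At these counts none of the paralogs passed the rule of size defined next.

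With 1 library per group there is no test between groups. A gene was measured in a pair if it had at least 20 reads in 1 of the 2 libraries, counts were scaled by the median ratio of all genes, 0.5 was added, and a gene was called higher or lower if its log2 ratio was at least 1 in size and its 95% counting interval excluded 0. All ratios below are on this scale, and none was checked by a replicate.

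The first pair asks what the loss of 1 En1 copy goes with in captured neurons of young mice. Ribosomal protein genes as a group were near the middle of all genes: 36 of the 80 were measured, their median log2 ratio of En1+/- over wild type was 0.10, and the median of all 11500 measured genes was also 0.10. Their summed reads had a ratio of 1.13 (1.09 to 1.18). The large-subunit sum had a ratio of 1.21 (1.14 to 1.28) and the small-subunit sum 1.05 (0.984 to 1.12).

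Of the 36 measured genes 7 were higher and 4 lower in En1+/-. Among all measured genes 20.2% were higher and 14.2% lower, 34.3% in either direction, so the members' counts were near this background. At least 20 reads in both libraries were found for 21 genes, of which 0 were higher and 1 was lower, against 11.3% higher and 11.5% lower, 22.8% in either direction, of all 8715 such genes.

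The 7 higher genes had few or no reads in the wild type. Rpsa, whose protein belongs to the small subunit and also serves as a laminin receptor, had 0 reads in the wild type and 56 in En1+/-, at least 9.33-fold higher against a floor of 3 reads. It had 2 reads in each of the contralateral and infused samples, so the En1+/- library stood apart from the other 3. Rps19, the gene most often mutated in Diamond-Blackfan anemia, had 1 read in the wild type and 34 in En1+/-, which put its log2 ratio at 3.68 (1.51 to 9.43). Rpl12, a protein of the stalk base, had 0 wild-type and 31 En1+/- reads, at least 5.17-fold higher, and Rpl7a had 1 and 29.

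The other higher genes were Rpl9, Rps13 and Rpl35. Rpl9 had 8 reads in the wild type and 104 in En1+/-, which is 2.65 (1.67 to 3.95) on the log2 scale. Rps13 had 2 and 26 reads, and Rpl35, a protein at the tunnel exit, 16 and 106 with a log2 ratio of 1.71 (0.96 to 2.59). Of these 7 genes, Rpsa, Rps19, Rps13 and Rpl35 were counted on protein-coding transcripts, Rpl9 and Rpl12 on retained-intron transcripts and Rpl7a on a processed transcript without coding annotation. On its most-read coding transcript Rpl9 was also higher, with 7 and 104 reads, while Rpl12 (0 and 10) and Rpl7a (1 and 15) fell below 20 reads.

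The 4 lower genes belonged to the large subunit. Rpl10, which completes the large subunit late in its assembly, had 37 reads in the wild type and 10 in En1+/-, a log2 ratio of −2.80 (−4.06 to −1.85). Its reads lay on a retained-intron transcript, and its coding transcript had 4 and 0 reads. Rpl18 had 21 and 9 reads, Rpl36 had 21 and 12, and Rpl21 had 24 and 20, at −1.23 (−2.20 to −0.35) on the log2 scale. None of the 4 exceeded 37 reads in either library.

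Genes with more reads lay closer together. Rpl15 was the highest of those with 20 reads in both libraries, with 122 and 481 reads and a ratio of 0.98 (0.69 to 1.28) on the log2 scale, just inside the size limit of 1. Rpl8 followed at 0.57 (0.35 to 0.79) and Rpl5, which with Rpl11 binds the p53 regulator Mdm2, at 0.47 (0.21 to 0.75). Rps20 was lower at −0.57 (−0.97 to −0.16). Rpl11 itself had 0 reads in both libraries on the transcript used. The authors' deposited table of this pair, made per transcript, holds 73 of the genes with no adjusted p under 0.05, the smallest unadjusted p being 0.0311 for Rpsa.

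The second pair asks what En2 infusion goes with on the infused side of the same brain region. The group again lay near all genes: 31 of the 80 were measured, their median log2 ratio of infused over contralateral was 0.08, and the median of all 11361 measured genes was 0.08. The ratio of summed reads was 1.16 (1.11 to 1.22). Without the Rpl24 entry the median was 0.17 and the ratio of summed reads 1.20. The small-subunit sum had a ratio of 1.30 (1.21 to 1.39), above the 1.04 (0.969 to 1.11) of the large-subunit sum.

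Of the 31 measured genes 7 were higher and 3 lower on the infused side. The background among all measured genes was 20.7% higher and 17% lower, 37.7% in either direction, and the members' count was near it. Of the 19 genes with at least 20 reads in both libraries 0 were higher and 0 lower, against 13.1% higher and 9.84% lower, 22.9% in either direction, of all 8597 such genes.

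Rps6, whose protein is phosphorylated by the S6 kinases downstream of mTOR, had 0 contralateral and 85 infused reads, at least 25.1-fold higher against a floor of 3 reads. It had 0 reads in the wild type and 7 in En1+/-, so these reads stood almost wholly in 1 library of the 4. They lay on a processed transcript with no coding annotation. The coding transcript of Rps6 had 0, 8, 1 and 13 reads in the wild type, En1+/-, contralateral and infused sample. In the authors' deposited table the processed transcript had an unadjusted p of 0.00152 and an adjusted p of 0.458, the smallest adjusted p of any member there.

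Rpl10 had 7 contralateral and 112 infused reads, a log2 ratio of 3.74 (2.74 to 5.17), and its coding transcript, with 3 and 43 reads, was also higher at 3.47 (2.02 to 6.00). The same gene was called lower in the En1+/- pair, and also between the 2 controls, with 37 reads in the wild type and 7 in the contralateral sample. Its low contralateral count thus enters the infusion ratio, and the difference between the pairs was not tested. Rpl35a had 2 and 50 reads on a retained-intron transcript, at 4.18 (2.54 to 7.56) on the log2 scale, but 2 and 7 on its coding transcript. Rpl27 had 4 and 50 reads, Rpl28 had 11 and 58, Rps19 had 4 and 24 and Rps2 had 7 and 23. Rpl27, Rpl28 and Rps19 were counted on coding transcripts and Rps2 on a retained intron.

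The lower genes included Rpl30, with 32 contralateral and 2 infused reads, and Rpl36a, with 31 and 6. Their log2 ratios were −3.85 (−7.28 to −2.20) and −2.44 (−4.09 to −1.26). Rpl30 had 4 reads in the wild type and 2 in En1+/-, so the contralateral library was the one that stood apart. Both genes were counted on retained-intron transcripts. With the reads of its pseudogenes added, Rpl36a had 44 and 32 reads, at −0.62 (−1.34 to 0.06), and was no longer called lower. Rpl30 then had 34 and 2 reads and was still called lower, at −3.94 (−7.36 to −2.30). In the authors' deposited table of this pair 0 of 76 genes had an adjusted p under 0.05.

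**Figure D3:**
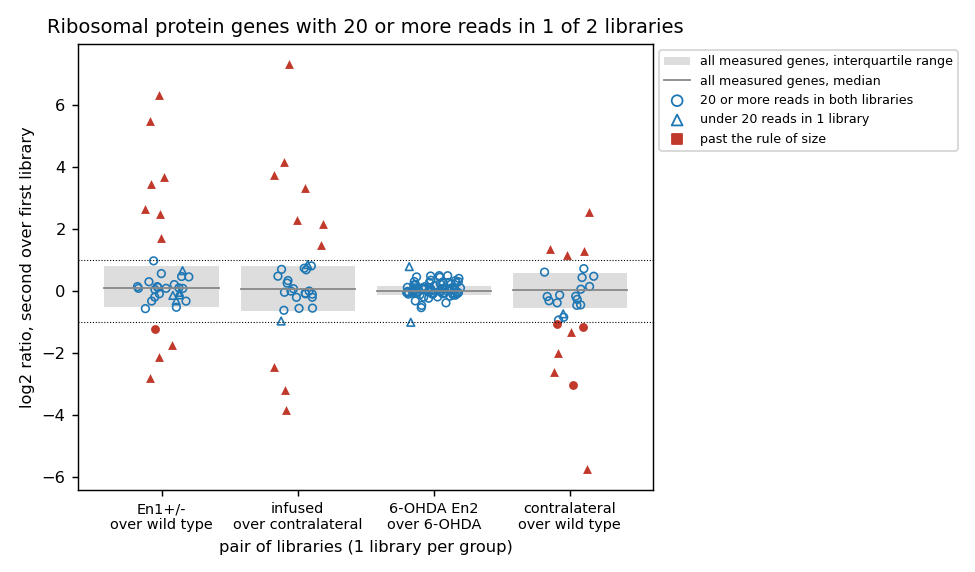
Log2 ratio, second over first library, of every ribosomal protein gene with at least 20 reads in 1 library of the pair (circles: 20 reads in both libraries, triangles: under 20 in 1), filled red where past the rule of size (20 reads in 1 library, log2 ratio of 1 in size, interval excluding 0), with the median and interquartile range of all measured genes in grey. Of the red points 1 is a circle for En1+/- over wild type, 0 for infused over contralateral and 3 between the controls, and the punched pair has no red point.

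The 2 captured controls, wild type and contralateral, give the difference between samples that carried no lowered En1 and were not on the infused side. They differed in age (6 and 8 weeks) and in surgery. Of 28 measured genes 4 were higher and 7 lower in the contralateral sample, against a background of 14.1% higher and 13.4% lower, 27.5% in either direction. Of the 19 with at least 20 reads in both libraries 0 were higher and 3 lower, against 7.23% higher and 8.29% lower, 15.5% in either direction, of all such genes. The median log2 ratio of the 28 was −0.29, against 0.04 for all measured genes, and the ratio of summed reads was 0.782 (0.743 to 0.822). On the log2 scale this sum lay at −0.36, against 0.18 and 0.22 in the 2 captured study pairs. The large-subunit gene Rpl27a had 293 reads in the wild type and 606 in En1+/-, but 44 in the contralateral and 81 in the infused sample. The first 2 libraries lay at 194 and 185 CPM and the last 2 at 23.1 and 35.1. Rpl21 had 24 and 20 reads in the mice aged 6 weeks and 0 in both samples of the infusion pair on a retained-intron transcript, but 17, 10, 9 and 0 on its coding transcript, in the order wild type, En1+/-, contralateral and infused.

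Genes that were well read in all 4 captured libraries, a choice that leaves out genes near 0, differed in how far they varied. At least 20 reads in each library were found for 18 genes, the Rpl24 entry included. The highest level was 1.17 to 8.42 times the lowest, with a median of 1.96, and 2 times or more for 7 of the 18. Rpl4 was steadiest, at 145, 142, 126 and 123 CPM in the wild type, En1+/-, contralateral and infused sample, and Rps3, a small-subunit protein at the mRNA entry, followed at 173, 176, 228 and 185. Rpl15 and Rpl27a varied most, by 4.24 and 8.42 times. The lowest level was in a sample of the infusion pair for 13 of the 18 genes, 5 in the contralateral and 8 in the infused one.

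**Figure D4:**
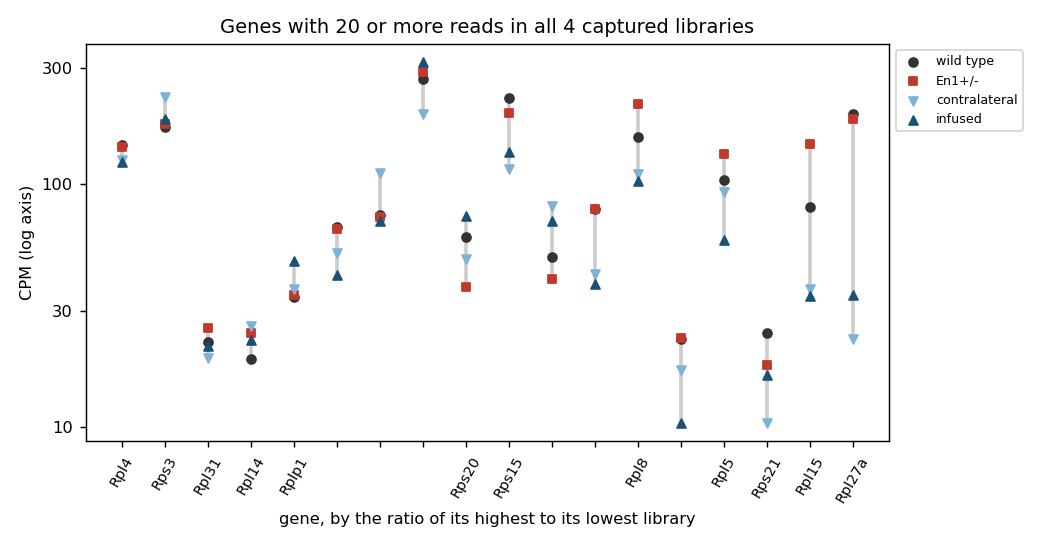
Level, in CPM on a log axis, of the 18 genes with at least 20 reads in all 4 captured libraries, ordered by the ratio of the highest to the lowest library (1 point per library; some genes are labelled). Rpl4 stays between 123 and 145, while Rpl27a lies at 194 and 185 in the wild type and En1+/- and at 23.1 and 35.1 in the contralateral and infused samples.

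The third pair asks what En2 injection goes with after 6-OHDA, in whole punches. Here ribosomal protein genes hardly differed: 73 of the 80 were measured, 0 were higher and 0 lower, against 4.66% higher and 1.23% lower, 5.89% in either direction, of all 15747 measured genes. Their median log2 ratio of 6-OHDA En2 over 6-OHDA was 0.05 (0.01 for all genes), and their interquartile range ran from −0.07 to 0.21. The ratio of summed reads was 1.01 (1.00 to 1.02), and 70 of the 73 genes lay within 0.5 of 0. The sums of the small and the large subunit had ratios of 1.01 (0.993 to 1.03) and 1.01 (0.997 to 1.03).

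Most of the extremes were genes with few reads. Rps21 was lowest with 21 and 12 reads, at −1.01 (−2.20 to 0.05) on the log2 scale, and Rpl36 highest with 17 and 35, at 0.79 (−0.07 to 1.74). Rpl37 had 36 and 60 reads at 0.50, and the paralog Rps27l had 33 and 28 at −0.46. These 4 intervals included 0. The exception was Rpl26, whose protein also binds p53 mRNA and which was second lowest, with 402 and 326 reads at −0.54 (−0.75 to −0.32).

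The interval excluded 0 in 17 of the 73 genes, 13 with a higher and 4 with a lower level after En2. Among all measured genes it lay above 0 for 20.1% and below 0 for 15.8%. Rplp1 had 690 reads in the 6-OHDA punch and 1106 in the 6-OHDA En2 punch, at 0.45 (0.31 to 0.59) on the log2 scale. Neither Rplp1 nor Rpl26 had reads on named pseudogenes in the punches. Rps2 had 150 and 249 reads at 0.50 (0.20 to 0.80), Rpl12 had 97 and 160 at 0.49 (0.12 to 0.87), and Rpl19 had 286 and 462 at 0.46 (0.24 to 0.68).

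Adding the reads of their pseudogenes moved 28 of 37 genes closer to 0 and 9 farther from it, among those with more than 50% of their family's 6-OHDA reads on pseudogenes. Rpl19 then had 5640 and 6633 reads, at 0.00 on the log2 scale, and Rps2 had 2534 and 3371 reads at 0.18 (0.10 to 0.25). Rps25 went the other way, from 0.06 (−0.12 to 0.23) to −0.13 (−0.21 to −0.05), and Rpl17 went from 0.10 (−0.33 to 0.54) to −0.11 (−0.16 to −0.06). With all such reads added, 75 genes were measured, the interquartile range ran from −0.07 to 0.08 and the ratio of summed reads was 0.988. In the authors' deposited table of this pair all adjusted p of members with a value were 1, and the smallest unadjusted p was 0.0622, for Rplp1.

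**Figure D5:**
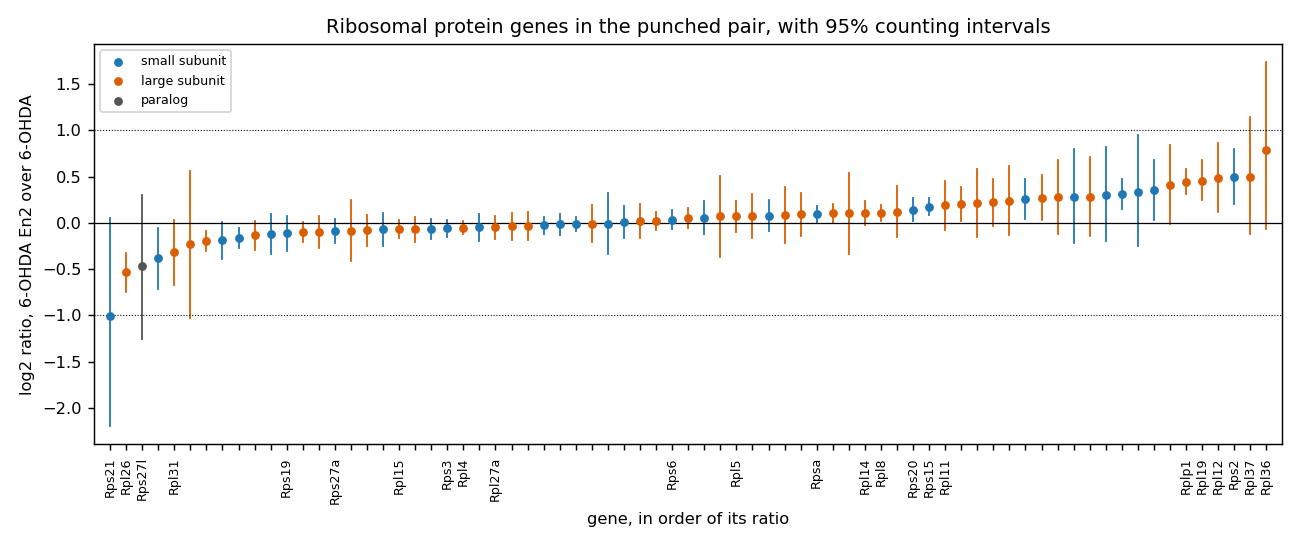
Log2 ratio of 6-OHDA En2 over 6-OHDA for the 73 measured ribosomal protein genes, in order, with 95% counting intervals and coloured by subunit (dotted lines at −1 and 1; some genes are labelled). No interval lies wholly beyond a dotted line, and the intervals of Rplp1 (0.45) and Rpl26 (−0.54) are among those that exclude 0.

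The well-known members of signaling and disease differed little between the punches. Rps6 had 1366 and 1643 reads, Rpsa had 2007 and 2515, at 0.09 (0.01 to 0.18) on the log2 scale, and Rps19 had 437 and 475. Rpl5 had 527 and 651, Rpl11 had 206 and 276 and Rps27a, a ubiquitin fusion, 921 and 1019. None of these 6 lay beyond 0.19 in size. Rpsa, Rps19 and Rps6, called in a captured pair on 0 to 4 reads in 1 library, each had at least 437 reads in both punches.

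Markers of other cells moved more than these genes in the same punches. The 8 neutrophil markers summed to 109 reads in the 6-OHDA punch and 1844 in the 6-OHDA En2 punch, from 6.84 to 96.8 CPM, with Elane at 0 in both. The summed levels of the 11 oligodendrocyte markers had a ratio of 0.805, those of the 16 dopaminergic markers 1.31 and those of the 12 microglia and macrophage markers 0.594. Astrocyte markers had 1.26, endothelial and pericyte markers 0.792 and GABAergic neuron markers 1.06. In the infusion pair the microglia and macrophage sum had a ratio of 2.29, the dopaminergic sum 1.18, the astrocyte sum 1.15 and the oligodendrocyte sum 1.10, while the endothelial and pericyte sum had 0.827 and the GABAergic sum 0.822. Single markers did not all follow these sums. The median log2 ratio of the astrocyte markers was −0.04, and of 7 measured endothelial and pericyte markers 3 were called higher and 1 lower. In the En1+/- pair the GABAergic sum had the highest ratio, at 1.48 (1.41 to 1.56), followed by the endothelial and pericyte sum at 1.23, the astrocyte sum at 1.07, microglia and macrophages at 1.00, the dopaminergic sum at 0.959 and the oligodendrocyte sum at 0.918. Neutrophil markers had 12 reads in the wild type, 0 in En1+/-, 11 in the contralateral and 9 in the infused sample. Their part in the ratios of ribosomal protein genes was not tested.

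Mitochondrial ribosomal protein genes (77 with an Mrpl or Mrps symbol), whose products build the separate ribosome of mitochondria, gave median log2 ratios of 0.00 for En1+/- over wild type, 0.41 for infused over contralateral, −0.08 in the punched pair and −0.51 between the 2 captured controls. In the infusion pair 18 of 66 were higher and 9 lower, against 20.7% and 17% of all measured genes. In the En1+/- pair 10 of 72 were higher and 9 lower, against 20.2% and 14.2%. Between the controls 1 of 71 was higher and 18 lower in the contralateral sample, against 14.1% and 13.4%. The contralateral library is also the lower term of the infusion ratio. In the punches 0 of 76 passed in either direction, as for the cytosolic genes, against 5.89% of all measured genes.

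Other genes of translation were described by lists. In the punched pair 0 of 38 initiation factors, 0 of 12 elongation and termination factors, 0 of 13 other ribosome or TOP mRNA genes, 0 of 40 ribosome assembly and RNA polymerase I genes and 1 of 12 regulators upstream of ribosomal protein translation were past the rule of size. The exception was Mycn, a proto-oncogene of the Myc family, with 6 and 23 reads. Among all measured genes of the punched pair 4.66% were higher and 1.23% lower.

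In the En1+/- pair 20.2% of all measured genes were higher and 14.2% lower, the background for the list counts that follow. Of 35 initiation factors 6 were higher and 1 lower. Eif4ebp2, a translation repressor that is inactivated by mTOR, had 32 wild-type and 281 En1+/- reads, at 2.12 on the log2 scale, Eif2b4 had 38 and 292 and Eif4b had 94 and 581, while Eif5b was lower with 249 and 198. Of 10 upstream regulators 4 were higher and 1 lower. Tsc1, part of the complex that inhibits mTOR, had 59 and 579 reads, at 2.29 (1.91 to 2.71), Myc had 4 and 148, Rptor of the mTOR complex had 84 and 464, and Rheb, the activator of mTOR, was lower with 208 and 184. Myc had few wild-type reads, while Tsc1, Rptor and Rheb had at least 59 in both libraries. Among 36 assembly genes 5 were higher, with Nol6 at 48 and 649, Rrn3 at 94 and 586 and Riok1 at 22 and 132 reads, and 6 lower, with Nop58 at 56 and 18, Gar1 at 44 and 18 and Nop56 at 129 and 82. The elongation and termination factors gave 0 calls among 10, and Naca (10 and 91 reads) and Rpl7l1 (7 and 68) were higher among 6 other ribosome or TOP mRNA genes.

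In the infusion pair the background was 20.7% higher and 17% lower of all measured genes. Of 35 initiation factors 5 were higher and 5 lower. Eif2b2 had 31 contralateral and 154 infused reads and Pabpc1, the poly(A)-binding protein, 56 and 169, while Eif2b3 had 32 and 1 and Eif3b had 104 and 24. Eif2b2 and Eif2b3 encode subunits of the same exchange factor and went opposite ways. Among 35 assembly genes 13 were higher and 9 lower, with Nob1, the nuclease that finishes the small-subunit RNA, at 12 and 349 reads, Nip7 at 21 and 243, Polr1b at 2 and 77, Nolc1 at 104 and 9 and Taf1b at 53 and 8. Of 10 elongation and termination factors Abce1 (245 and 126 reads) and Eef2k (66 and 27) were lower, of 9 upstream regulators Tsc2 was higher with 207 and 719, and Naca (23 and 11) and Rpl7l1 (34 and 10) were lower among 4 other ribosome or TOP mRNA genes.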

How the data were processed

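The submitters' processing notes name Bowtie, HTSeq and DESeq 1.8.3 and the build mm10, without roles; a header of the punched comparison table names mm9. For the captured samples the authors deposited raw read counts per transcript, and for the punched samples raw counts per gene. The authors' deposited comparison tables hold a log2 fold change (captured pairs) or a linear fold ratio (punched pair) with p-values, each from 1 library against 1 library. The 6 mean columns per library in these tables were not used.

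The genes and lists were chosen with earlier results of these data known. A captured gene was represented by its transcript with the most reads over the 4 libraries, since transcripts of a gene can share reads: for 15 of 37 genes with several transcripts and 20 reads, the second transcript held over 90% of the first one's reads. These transcripts were protein-coding for 58 genes (92.8% of member reads), retained introns for 16, processed transcripts for 5 and without a type in GENCODE M21 for 1 (Rpl18). In the punched files, 4 counts stood 1 column to the right and were moved back, none of them a member's. Members were matched to GENCODE M21 (GRCm38) by gene identifier, and pseudogenes by a symbol ending in -ps (212 in the captured and 215 in the punched tables).

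Scaling was the median of ratios within a pair, with factors of 0.707 and 1.41 in the En1+/- pair. Ratio intervals were exact (Clopper-Pearson), levels had Poisson intervals. Named genes were all members past the rule of size, the extremes of each pair, the 3 highest per kilobase, the P stalk, paralogs and 6 members of known roles; members at 0 in a library are given by their number, and some genes that the rule names are not reported here. From other lists at most 3 genes per direction were named, those with the interval end farthest from 0. The rule of size was tested on simulated Poisson counts with known ratios. These held no variation between libraries beyond counting, so they do not show how often unchanged genes pass the rule here. Alternatives were other scalings (library totals, TMM from edgeR 4.0.16, totals outside mitochondrial and ribosomal RNA genes), other read minimums, 1 added in place of 0.5, other transcripts, and, chosen after seeing the data, the most-read coding transcript, added pseudogene reads and leaving out the entry listed as Rpl24. Python 3.11.15, scipy 1.17.1 and R 4.3.3 were used.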

Additional observations from a re-analysis of the deposited data

Results flagged for a closer look

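Reads on ribosomal protein pseudogenes, summed over 212 named copies in the captured and 215 in the punched samples, were found in every library. There were 610 such reads in the wild type, 1157 in En1+/-, 419 in the contralateral and 447 in the infused sample, and 98053 and 112536 in the 6-OHDA and 6-OHDA En2 punches. There is no control sample for this signal. Between the punches 111 pseudogenes were measured, of which 1 was higher and 0 lower, and the ratio of their summed reads was 0.976 (0.968 to 0.985).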

How the results depend on the processing

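No paired analysis was possible because each group has 1 sample and the labels carry no replicate numbers. Counts are given as higher and lower genes. Library totals shift the median of all genes from 0.10 to 0.70 in the En1+/- pair and from 0.08 to 0.39 in the infusion pair, which raised the higher genes to 12 and 12, the En1+/- median to 0.69 and the ratios of summed reads to 1.71 (En1+/-), 1.45 (infusion) and 0.859 (controls). Totals outside mitochondrial and ribosomal RNA genes gave ratios of 1.04 and 1.08 in the first 2 pairs. In the punched pair both totals gave 0.995 and added pseudogene reads 0.988, so the direction of a ratio that close to 1 turned. No minimum gave 12 lower genes in the En1+/- pair, 11 and 9 in the infusion pair and 9 and 13 between controls. A minimum of 100 reads gave 2 and 0, 1 and 0, and 0 and 2 in these pairs, and 20 reads in both libraries 0 and 1, 0 and 0, and 0 and 3. These minimums test fewer or more genes. Summed transcripts gave 9 lower genes in the En1+/- pair, 11 and 6 in the infusion pair (ratio 1.28) and 8 and 13 between controls (0.827). The longest transcript gave 1 lower gene, 3 higher genes, and 3 lower genes (0.839) in the same order. The most-read coding transcript gave 1 lower, 4 higher, and 2 and 4, and added pseudogene reads 2 higher genes between controls. For these transcript choices the cause was not tested. Without the entry listed as Rpl24 the counts of higher and lower genes were the same in all 4 pairs, and the ratio between controls was 0.754. The other 136 values, all those under TMM and without that entry included, stayed within set limits. The limit was 1.5 times for counts of genes and the main counting interval for ratios of summed reads. For medians it was a 95% interval of the median over genes, which are not replicates. Depth limits the captured pairs: 44, 49 and 52 of 80 genes were below 20 reads in both libraries.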
